A study of Mus musculus with 6 samples.

Results

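The 10 Toll-like receptor genes Tlr1 to Tlr9 and Tlr13 were followed in cultured mouse microglia, as all rows of the count and FPKM tables that carry 1 of these symbols. These are 10 of 41079 listed genes, and 9 of them had enough counts to be tested among 14618 genes. The microglia came from the brains of C57Bl/6N pups aged 1 to 3 days. They were shaken off mixed glial flasks that had each been seeded with cells of a few pooled brains and fed with L-929 conditioned medium, and all groups adhered briefly in serum. The 3 control libraries came from serum-free DMEM/F12. The 3 optimized libraries came from the same medium with human TGF-β1, IL-34 and CX3CL1 at 100 ng/mL each, and per the study's methods also with cholesterol, insulin-transferrin-selenium and collagen IV coating, which the sample labels do not name. The added agents were given together, so their separate shares cannot be told apart.

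Toll-like receptors are membrane proteins of innate immune cells that bind microbial or endogenous molecules with leucine-rich repeats and signal through a cytoplasmic TIR domain. Those on the cell surface recognize mainly microbial lipids and proteins, and those in endosomes recognize nucleic acids. The adaptor MyD88 serves all of them except Tlr3, which uses the adaptor TRIF (Ticam1), and Tlr4 uses both. Microglia are the main cells of the brain parenchyma to carry them, and their activation leads to NF-κB and interferon regulatory factor signaling.

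The libraries held 20628148 to 27261839 counts, and the 10 receptors took 0.120% to 0.135% of all counts in the control and 0.0921% to 0.115% in the optimized libraries. Replicates of a group differed well beyond counting noise, with a chi-square per gene of 10.7 to 25.9 between control libraries and 14.4 to 78.8 between optimized libraries, the highest of which was for optimized 1 against optimized 2. The 10 most abundant genes took 14.3% to 17.2% of counts in the control and 18.95% to 24.11% in the optimized libraries. Of 10 microglial markers, 6 were higher and 2 lower in the optimized libraries, and their summed level was 10720 to 11980 CPM in control and 15170 to 20640 CPM in optimized libraries. Border macrophage markers summed to 474.8 to 522.9 CPM in control and 264 to 368 CPM in optimized libraries, with 2 of the 6 genes higher and 1, Mrc1, lower. Endothelial markers summed to 77.98 to 94.3 CPM in control and 270.1 to 349.4 CPM in optimized libraries, nearly all of it Flt1 with Cldn5, Tek and Emcn near 0, fibroblast markers to 19.32 to 25.51 and 19.92 to 76.96 CPM, and astrocyte markers to 28.46 to 31.41 and 20.45 to 22.15 CPM. Of the 6 astrocyte markers only Aldh1l1 was called, lower at 16.5 and 4.64 CPM, while Gja1 was at 5.64 and 7.94 CPM. Oligodendrocyte markers summed to 128.8 to 144.8 CPM in control and 160.4 to 197.1 CPM in optimized libraries, with Mbp called higher, and neuron markers to 3.08 to 4.72 and 5.30 to 6.34 CPM, with Nefl called higher. B cell and plasmacytoid dendritic cell markers stayed at or below 0.805 CPM and T and NK cell markers at or below 0.122 CPM in every library, with Pax5, Cd3e and Cd8a at 0. Monocyte markers reached at most 4.17 CPM. Neutrophil markers summed to 0.219 to 0.329 CPM in control and 1.55 to 3.11 CPM in optimized libraries. Of these S100a8 was called higher, at 0.157 and 1.98 CPM, while Ly6g, S100a9, Mpo and Elane were at 0. The part of these other cells in the receptor values was not tested.

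Tlr1 and Tlr6 lie side by side on the minus strand of chromosome 5, at chr5:65082022-65090941 and chr5:65108704-65203497 (GRCm39, GENCODE M39), 17762 bases apart. They are close copies, and their canonical transcripts shared 454 identical 50-base words, out of 2997 words in Tlr1 and 4298 in Tlr6. No other pair of the 10 receptors shared such a word. The longest identical run had 229 bases, all of them coding, at chr5:65082880-65083108 in Tlr1 and chr5:65111171-65111399 in Tlr6. It is shown because reads from inside it fit both genes equally well. It is given 5′ to 3′ in the sense of the transcript, with the shared run in capitals and 10 flanking Tlr1 bases on either side in lower case.
Tlr1: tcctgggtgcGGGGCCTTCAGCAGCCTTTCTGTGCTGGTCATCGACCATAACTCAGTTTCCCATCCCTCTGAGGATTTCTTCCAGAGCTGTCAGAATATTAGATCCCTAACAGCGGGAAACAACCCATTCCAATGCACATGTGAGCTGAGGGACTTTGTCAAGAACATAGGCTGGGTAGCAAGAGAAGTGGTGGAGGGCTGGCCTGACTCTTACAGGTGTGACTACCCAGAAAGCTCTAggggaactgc
How the counting treated reads that fit more than 1 gene is not given in the sources used here, so the split of counts between Tlr1 and Tlr6 is uncertain over this run and the other stretches that hold shared words.

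Promoter sequences of 250 bases before an annotated start were matched in RefSeq (GRCm38.p6) for 8 of the 10 receptors, with 10 starts in all. Tlr4 and Tlr7 were not matched. The interferon-stimulated response element (GAAA, any 2 bases, GAAA), searched on both strands like the others, was found at 1 of the 10 starts, a Tlr6 start, where 2 matches overlap. It was found at 2.98% of 32851 promoters. Neither Tlr1 start, the other Tlr6 start nor the Tlr3 start held this element, although Tlr1 and Tlr3 were lower too. Whether the element bears on the level of any receptor was not tested. The matching Tlr6 sequence is shown because Tlr6 and its neighbor Tlr1 were both lower in the optimized libraries. It is chr5:64959167-64959416 on the minus strand in GRCm38.p6, 5′ to 3′, with the matches in capitals.
Tlr6: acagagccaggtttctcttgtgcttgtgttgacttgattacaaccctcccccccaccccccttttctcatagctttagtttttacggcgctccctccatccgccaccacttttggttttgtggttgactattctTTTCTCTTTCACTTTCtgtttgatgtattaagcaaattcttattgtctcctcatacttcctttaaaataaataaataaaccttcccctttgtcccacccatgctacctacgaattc
The PU.1 core GAGGAAGT was found at 1 Tlr1 start and at 2.44% of all promoters. The NF-κB pattern (GGG, any 5 bases, CC) was found at starts of Tlr2, Tlr3, Tlr5 and Tlr6 and at 45.8% of all promoters. The AP-1 pattern TGANTCA was found at Tlr9 and at 6.75% of promoters, and the SMAD pattern CAGACA at starts of Tlr1, Tlr6 and Tlr9 and at 17.1% of promoters. Neither Tlr8 nor Tlr13 held any of these letters in its window. A match is a description of the sequence only.

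To ask how the optimized medium and coating changed receptor mRNA, counts were compared with the quasi-likelihood test of edgeR, and p-values were adjusted by the Benjamini-Hochberg method over all 14618 genes. Levels are given as CPM, each count scaled to the library's total after TMM adjustment, with mean ± SD of 3 libraries. Of the 9 tested receptors, Tlr1, Tlr4, Tlr6 and Tlr3 were lower and Tlr13 was higher in the optimized libraries at an adjusted p under 0.05, while Tlr2, Tlr7, Tlr8 and Tlr9 did not pass. Among all tested genes, 29.8% passed, 14.7% as higher and 15.2% as lower. Where libraries were scaled by their totals only, 1513 genes were higher and 3168 lower, against 2142 and 2218, and 0 receptors were called higher and 6 lower. The median log2 fold change was -0.21 over the 9 receptors and 0.01 over all genes. In bulk RNA, fewer cells that express a receptor and less of its RNA per cell cannot be told apart.

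**Figure D1:**
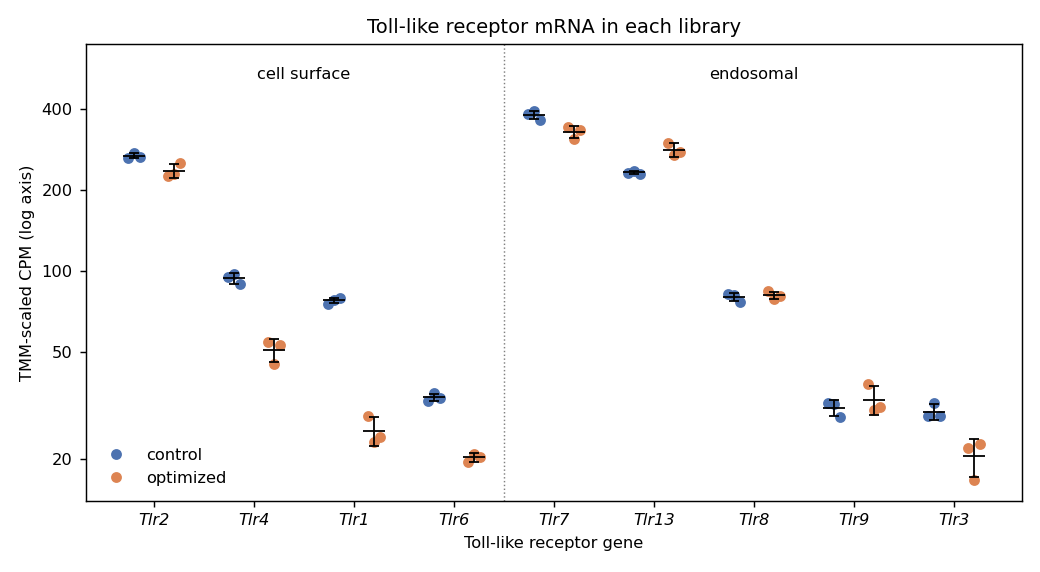
TMM-scaled CPM (log axis) of the 9 tested Toll-like receptors in each of the 3 control (blue) and 3 optimized (orange) libraries, with black marks for mean ± SD. Tlr1 fell from 77.9 to 25.4 CPM, while Tlr8 libraries of both groups lay between 77.1 and 84.2 CPM.

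Among the surface receptors, Tlr1 changed the most. Its protein pairs with Tlr2 and binds triacylated bacterial lipopeptides. Tlr1 was at 75.8, 78.4 and 79.4 CPM in control libraries 1 to 3 and at 29.0, 23.2 and 24.1 CPM in optimized libraries 1 to 3. Every optimized library lay below every control library. The mean fell from 77.9 ± 1.84 to 25.4 ± 3.14 CPM, a log2 fold change of -1.61 (SE 0.10, 95% interval -1.84 to -1.38, adjusted p = 2.22e-06), which is 3.06-fold lower. The raw counts behind it were 1734, 1923 and 2168 in control and 613, 544 and 499 in optimized libraries. In FPKM it moved from rank 2394 to rank 5735 among the 14618 tested genes.

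Tlr6, the alternative partner of Tlr2 for diacylated lipopeptides, also fell. Its levels were 33.0, 35.1 and 33.7 CPM in the control and 19.6, 21.0 and 20.4 CPM in the optimized libraries. The groups did not overlap, and the spread within each was small (33.9 ± 1.10 and 20.3 ± 0.719 CPM). The log2 fold change was -0.74 (SE 0.09, 95% interval -0.94 to -0.54, adjusted p = 1.54e-04). With the counts of Tlr1 and Tlr6 added up, so that the split between them plays no part, the log2 fold change of the sum was -1.29 (SE 0.08, adjusted p = 2.18e-06). This sum was chosen after the shared sequence had been seen.

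Tlr4, the lipopolysaccharide receptor, lies at chr4:66745783-66849936 on the plus strand. It was at 94.9, 97.7 and 89.4 CPM in the control and 54.4, 45.2 and 53.2 CPM in the optimized libraries. All 3 optimized libraries were below all 3 control libraries. The mean went from 94.0 ± 4.24 to 50.9 ± 4.98 CPM, a log2 fold change of -0.88 (SE 0.10, 95% interval -1.10 to -0.67, adjusted p = 7.71e-05).

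Tlr2, which senses bacterial lipoproteins together with Tlr1 or Tlr6, was far more abundant and moved less. The control libraries held 263.9, 275.7 and 266.8 CPM and the optimized libraries 226.3, 229.6 and 253.3 CPM. The optimized libraries again lay below the control libraries, but the difference did not pass the test, with a log2 fold change of -0.19 (SE 0.08, 95% interval -0.37 to -0.0005, adjusted p = 0.126). The change is therefore bounded by this interval rather than shown to be absent. The flagellin receptor Tlr5 had 3, 4 and 2 counts in the control and 1, 0 and 2 in the optimized libraries, too few for a test or a fold.

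Tlr3, the endosomal receptor of viral duplex RNA, lies at chr8:45848702-45864117 on the minus strand. It was at 28.9, 32.5 and 28.8 CPM in the control and 22.0, 16.7 and 22.7 CPM in the optimized libraries. The groups did not overlap, and optimized 2 was the lowest. The log2 fold change was -0.56 (SE 0.13, 95% interval -0.84 to -0.27, adjusted p = 0.00840).

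Tlr13, which recognizes bacterial ribosomal RNA and is encoded at chrX:105186810-105204533 on the plus strand, was the 1 receptor that was higher. It was at 232.6, 236.6 and 229.5 CPM in the control and 300.8, 269.5 and 278.2 CPM in the optimized libraries. Every optimized library exceeded every control library on this scale. The mean rose from 232.9 ± 3.57 to 282.8 ± 16.2 CPM, a log2 fold change of 0.28 (SE 0.08, 95% interval 0.10 to 0.46, adjusted p = 0.0262). The call depends on the scaling and on which libraries are used. With library size alone the log2 fold change was 0.15 (adjusted p = 0.299). Without control 1, control 2, control 3 or optimized 3 the adjusted p was 0.0881, 0.0812, 0.108 and 0.0769. The call was kept without optimized 1 or optimized 2 (adjusted p = 0.0227 and 0.0283). Library size alone lowers the median change of all genes by 0.13 on the log2 scale.

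Tlr7 and Tlr8, which bind RNA and its breakdown products, are neighbors on the minus strand of chromosome X, at chrX:166086758-166113605 and chrX:166024184-166047325, 39432 bases apart. Tlr7 had 385.1, 392.7 and 366.0 CPM in the control and 343.5, 311.4 and 333.8 CPM in the optimized libraries. These did not overlap, and the log2 fold change of -0.21 (SE 0.08, 95% interval -0.40 to -0.02) had an adjusted p of 0.0894. Without optimized 1, which differed most from its replicates, it was -0.24 with an adjusted p of 0.0293, and with library size alone it was -0.34 with an adjusted p of 0.0355.

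Tlr8 had 81.9, 81.6 and 77.1 CPM in the control and 84.2, 79.1 and 80.6 CPM in the optimized libraries. The groups overlapped, and the log2 fold change was 0.02 (SE 0.08, 95% interval -0.15 to 0.20, adjusted p = 0.882). Tlr9, the receptor of unmethylated CpG DNA at chr9:106099797-106104082 on the plus strand, had 32.4, 32.1 and 28.7 CPM in the control and 38.1, 30.5 and 31.3 CPM in the optimized libraries. These overlapped too, with optimized 1 above the rest, and the log2 fold change was 0.10 (SE 0.11, 95% interval -0.15 to 0.35, adjusted p = 0.557). Both intervals leave room for small changes in either direction.

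Counted without a test, 6 of the 9 receptors had every optimized library below every control library and 1, Tlr13, had every optimized library above, where 22.5% and 21.4% of all tested genes did so. The 6 were Tlr1, Tlr2, Tlr3, Tlr4, Tlr6 and Tlr7. Of the 4 tested surface receptors 3 were called lower, with a median log2 fold change of -0.81. Of the 5 endosomal receptors 1 was called lower and 1 higher, with a median of 0.02. Among all tested genes 15.2% were called lower and 14.7% higher, so 1 of 5 in each direction is near that share. The parasite profilin receptors Tlr11 and Tlr12 were scarce, with at most 5 counts of Tlr11 in a library and 28 to 44 counts of Tlr12 in control and 11 to 19 in optimized libraries. Tlr12 had a log2 fold change of -1.08 (SE 0.35, adjusted p = 0.0413), and its adjusted p was up to 0.146 with a library left out, without control 2.

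**Figure D2:**
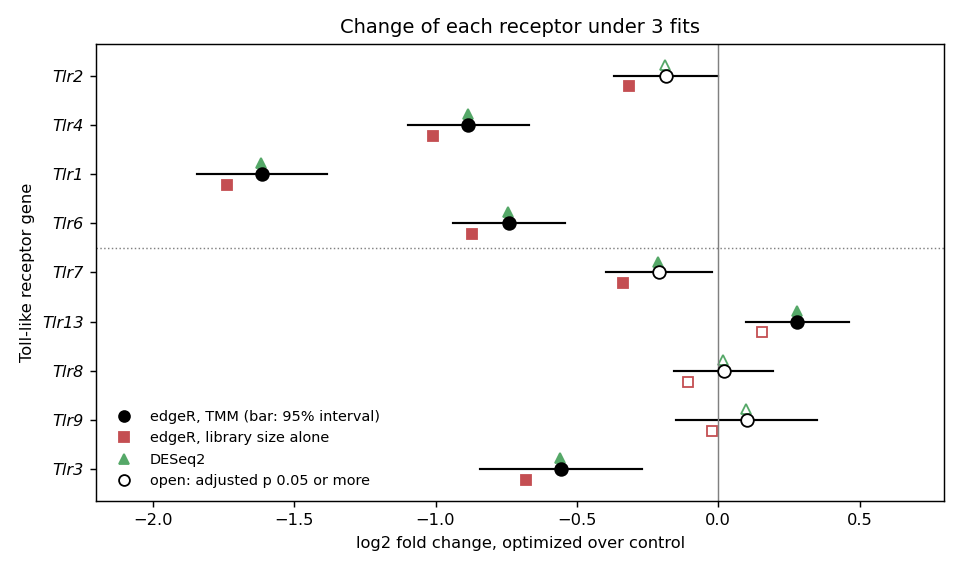
log2 fold change of each receptor in optimized over control libraries by edgeR with TMM scaling (black, bar for the 95% interval), edgeR with library size alone (red squares) and DESeq2 (green triangles), with filled symbols at an adjusted p under 0.05. Tlr1, Tlr4, Tlr6 and Tlr3 are filled and below 0 in all 3 fits, and Tlr13 is filled in the TMM and DESeq2 fits.

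The lower calls of Tlr1, Tlr4, Tlr6 and Tlr3 were kept in every alternative and with each library left out. The highest adjusted p of Tlr3 among these was 0.0493, without control 2. No receptor overlapped the exons of another counted gene. Tlr4 and Tlr3 each overlap an opposite-strand gene model by 235 and 438 exon bases, Gm69151 and Gm45542, which the count table does not list.

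Levels of different receptors were compared per length, as FPKM, which the authors deposited. The gene lengths behind these values are not given. Counts per FPKM in control 1, which scale with the length used, were 72.9 for Tlr2, 122 for Tlr7 and 186 for Tlr4. Their joined exons held 5499, 5300 and 7009 bases in GENCODE M39, so other lengths were used. The order, ranks and shares of receptors in FPKM hold for the deposited lengths only and could differ with others. In the control libraries Tlr2 was the highest, at 82.8 ± 4.09 FPKM, followed by Tlr7 at 70.1 ± 5.01 and Tlr13 at 59.0 ± 2.96 FPKM. Tlr1 came next at 24.3 ± 0.684 FPKM, then Tlr8 at 15.1 ± 1.06, Tlr4 at 11.4 ± 0.909, Tlr9 at 9.12 ± 0.927, Tlr6 at 7.67 ± 0.421 and Tlr3 at 6.04 ± 0.573 FPKM. Tlr5 was at 0.0198 FPKM. Of the neighbors in this order only Tlr9 and Tlr6 overlapped between libraries.

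In the optimized libraries Tlr2 was at 66.1 ± 5.34 FPKM and Tlr13, now ahead of Tlr7, at 65.1 ± 6.22 FPKM. Tlr7 was at 55.1 ± 5.01, Tlr8 at 13.9 ± 0.994, Tlr9 at 8.88 ± 1.42 and Tlr1 at 7.24 ± 1.15 FPKM. Tlr4 followed at 5.60 ± 0.768, Tlr6 at 4.17 ± 0.0672, Tlr3 at 3.75 ± 0.727 and Tlr5 at 0.00713 FPKM. The libraries of Tlr2 and Tlr13, Tlr13 and Tlr7, Tlr9 and Tlr1, and Tlr6 and Tlr3 overlapped in range across libraries. Within each library the last 3 of these pairs kept this order in 3 of 3 libraries, and Tlr2 exceeded Tlr13 in 2 of 3. Tlr1 thus went from the fourth to the sixth place and Tlr13 from the third to the second by mean FPKM, next to Tlr9 and Tlr7 whose ranges overlapped theirs.

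The summed FPKM of the receptors was 289.7, 299.5 and 267.8 in the control and 244.5, 208.4 and 236.9 in the optimized libraries. All optimized sums were below all control sums. The 5 endosomal receptors made up 56.4%, 55.8% and 55.1% of it in the control and 65.5%, 63.4% and 62.5% in the optimized libraries. The mean share went from 55.8% ± 0.644 to 63.8% ± 1.58, a difference of 7.99 percentage points (two-sided exact permutation test, p = 0.1, the smallest that 3 against 3 libraries allow). Without the receptor of the highest mean FPKM, Tlr2, the difference was 11.03 points. Tlr2 is a surface receptor, and no endosomal receptor was left out in this way. With counts in place of FPKM, and so without gene lengths, it was 7.75 points.

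Tlr1 took 8.53% ± 0.300 of the receptor FPKM in control and 3.14% ± 0.299 in optimized libraries, and Tlr13 took 20.7% ± 0.164 and 28.3% ± 0.932. The shares of Tlr2 (29.0% ± 0.406 and 28.8% ± 1.84) and Tlr7 (24.5% and 23.9%) stayed close. Tlr4 went from 3.98% to 2.43%, Tlr6 from 2.69% to 1.82% and Tlr3 from 2.11% to 1.62%, while Tlr8 went from 5.30% to 6.07% and Tlr9 from 3.19% to 3.85%. A share is free of the scaling of libraries, but shares add up to a whole, so that a lower share of 1 receptor raises the others.

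**Figure D3:**
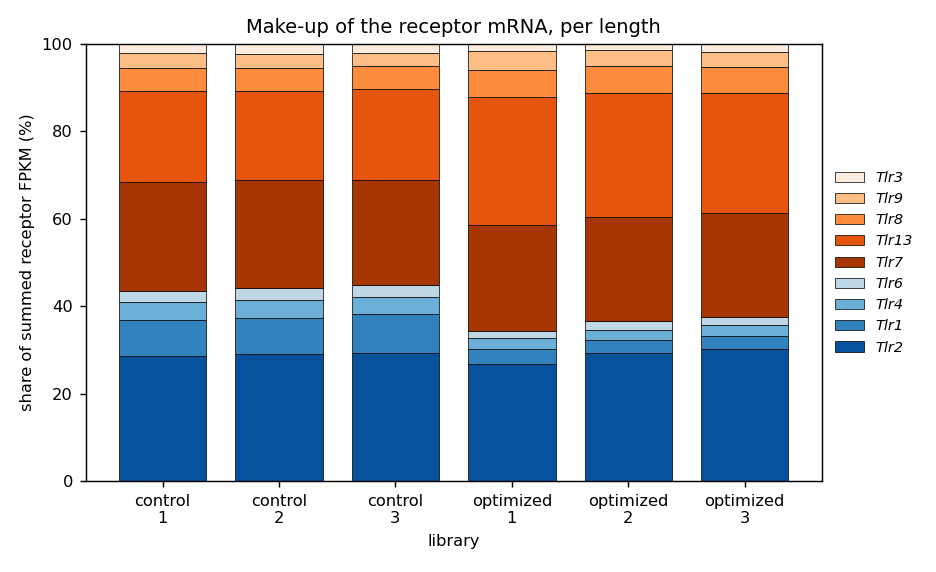
Share of the summed receptor FPKM (%) held by each of 9 receptors in each library, with surface receptors in blue and endosomal receptors in orange. Tlr5, at 0.0198 FPKM or less on average, is left out, and the orange part is higher in the 3 optimized libraries.

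Count ratios within a library do not depend on the scaling either, and 4 pairs were compared. Tlr1 counts were 2.30, 2.23 and 2.36 times those of Tlr6 in control libraries 1 to 3 and 1.48, 1.10 and 1.19 times in optimized libraries 1 to 3, so the pair shifted toward Tlr6. The log2 ratio fell by 0.88 in the mean. The Tlr1 to Tlr2 ratio was 0.287, 0.285 and 0.297 in control and 0.128, 0.101 and 0.0953 in optimized libraries, a log2 difference of -1.43. The Tlr4 to Tlr2 ratio was 0.360, 0.354 and 0.335 in control and 0.240, 0.197 and 0.210 in optimized libraries, a log2 difference of -0.70. Relative to Tlr2 in the same library, both surface receptors were lower in each optimized library than in any control library.

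The Tlr7 to Tlr8 ratio was 4.70, 4.81 and 4.75 in control and 4.08, 3.93 and 4.14 in optimized libraries. The log2 difference was -0.23, and again no library of 1 group reached the other. For each of the 4 ratios the two-sided exact permutation p was 0.1, the smallest possible with 3 against 3, and 0.1 after adjustment over the 4, so none could pass 0.05.

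**Figure D4:**
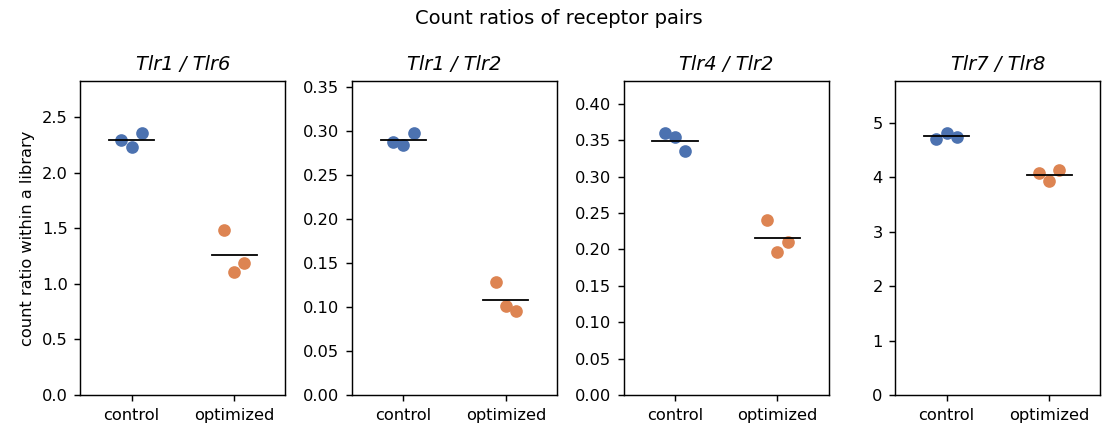
Count ratio of 4 receptor pairs within each control (blue) and optimized (orange) library, on linear axes from 0, with a line at the mean of 3 libraries. The optimized libraries lie below the control libraries in each panel, as with Tlr1 to Tlr6, at 1.10 to 1.48 against 2.23 to 2.36.

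The other genes of the pathway were taken from 9 lists of 103 genes, 99 of them tested. Of these, 20 were higher, 46 lower and 33 not called, beside 14.7% higher and 15.2% lower among all tested genes, and their median log2 fold change was -0.25. The count of 20 higher genes is near the share over all genes. Among the genes of co-receptors and soluble partners, 3 of 6 tested were higher and 2 lower. Cd14, which hands lipopolysaccharide to Tlr4, fell from 614 ± 36.1 to 242 ± 36.7 CPM (log2 fold change -1.35, SE 0.12, adjusted p = 2.18e-05). Cd36, a scavenger receptor that assists Tlr2 and Tlr6, fell from 394 ± 14.7 to 152 ± 6.60 CPM. Ly96, the MD-2 subunit that binds lipopolysaccharide within the Tlr4 complex, was at 10.9 ± 1.02 and 9.04 ± 0.936 CPM and did not pass (adjusted p = 0.160).

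Cd180 and its partner Ly86, which resemble Tlr4 and MD-2, rose together. Cd180 went from 489 ± 34.9 to 655 ± 39.0 CPM (log2 fold change 0.42, SE 0.09, adjusted p = 0.00720), and it was not called in the 3 limma fits on FPKM (adjusted p = 0.0562 to 0.0615). Ly86 went from 247 ± 31.8 to 406 ± 82.5 CPM (0.72, SE 0.15, adjusted p = 0.00556). The lipopolysaccharide-binding protein Lbp was at 2.04 and 3.92 CPM, with an adjusted p of 0.0191 and of up to 0.0799 with a library left out, without optimized 3.

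Of 8 genes for receptor trafficking, 3 were higher and 3 lower, beside 14.7% higher and 15.2% lower among all tested genes. Unc93b1, the chaperone that carries nucleic acid receptors to endosomes, fell from 639 ± 28.4 to 413 ± 30.3 CPM (log2 fold change -0.63, SE 0.09, adjusted p = 5.60e-04). The lysosomal transporter Slc15a4, which supports signaling of Tlr7 to Tlr9, fell from 86.7 ± 2.31 to 56.6 ± 2.40 CPM. Hsp90b1, a chaperone of the endoplasmic reticulum needed to fold most Toll-like receptors, rose from 807 to 1174 CPM (log2 fold change 0.54, SE 0.09). Slc15a3 and Arl8b were the other 2 called higher, and both lost the call with library size alone (adjusted p = 0.121 and 0.0940). Without control 1 or optimized 3, 1 gene of the list was called higher.

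Genes of the endosomal enzymes that cleave the receptors or degrade their ligands had 7 of 9 members called higher, 0 called lower and 2 not called. Their median log2 fold change was 0.77. Over all tested genes 14.7% were called higher and 15.2% lower. Ctsl, a cathepsin that processes endosomal receptors, rose from 847 to 2165 CPM (log2 fold change 1.35, SE 0.15, adjusted p = 9.65e-05). Lgmn, the asparagine endopeptidase, rose by 0.72 (SE 0.13) and the exonuclease Pld3, which removes DNA ligands of Tlr9, by 1.09 (SE 0.14) on the log2 scale. The lysosomal nuclease Dnase2a rose from 105 ± 5.75 to 179 ± 27.2 CPM. Rnaset2a was called higher as well (0.87, SE 0.15), but it has a near-identical copy in Rnaset2b, between which reads may have been split.

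Of the 6 adaptors 3 were lower and 0 higher, beside 15.2% lower and 14.7% higher among all tested genes. Without optimized 1, 5 adaptors were lower. Myd88 fell from 82.6 ± 4.50 to 44.7 ± 8.08 CPM (log2 fold change -0.89, SE 0.13, adjusted p = 5.12e-04), and optimized 1 was the lowest at 35.9 CPM. Pik3ap1, an adaptor that links the receptors to phosphoinositide kinase, fell from 626 ± 10.8 to 313 ± 13.9 CPM. Ticam1, the adaptor of Tlr3 and Tlr4, was at 31.3 ± 2.52 and 24.5 ± 2.18 CPM, with an adjusted p of 0.0311 and of up to 0.121 with a library left out, without control 1. Tirap, which bridges Myd88 to Tlr2 and Tlr4, was at 21.2 ± 1.88 and 18.5 ± 2.99 CPM and did not pass (adjusted p = 0.325).

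Of 19 kinases and ubiquitin ligases 3 were higher, 5 lower and 11 not called, the higher ones at about the 14.7% of all genes. The share lower over all tested genes was 15.2%. The number lower was 8 with library size alone and in 2 of the 3 limma fits. Ikbke, a kinase of the interferon branch, fell the most of these, from 261 ± 15.8 to 54.0 ± 4.77 CPM (log2 fold change -2.27, SE 0.10, adjusted p = 1.98e-07). Its relative Tbk1 fell by 0.44 and Irak4, the first kinase recruited by Myd88, by 0.41 on the log2 scale (SE 0.09 for each). The 3 called higher, Irak2, Traf6 and Tab1, had log2 fold changes of 0.29 to 0.40 and were not called with library size alone. With a library left out 0 to 3 of the list were called higher, 0 of them without control 2 or control 3 and 1 without control 1 or optimized 3, and 3 were lower without control 1, control 3 or optimized 3.

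Of 8 transcription factors 5 were lower and 1 was higher, beside 15.2% lower and 14.7% higher among all tested genes. The 1 higher is near that share. Without control 1, control 3 or optimized 3, 3 of the list were lower. Irf7, the interferon regulatory factor downstream of Tlr7 and Tlr9, fell from 200 ± 11.9 to 58.7 ± 10.5 CPM (log2 fold change -1.77, SE 0.13, adjusted p = 4.72e-06). Irf5 fell by 0.49 (SE 0.09). Irf8, a lineage factor of microglia that also takes part in Toll-like receptor signaling, rose from 257 ± 11.6 to 375 ± 27.2 CPM. Spi1, which encodes PU.1, was at 341 ± 25.9 and 231 ± 47.5 CPM, with an adjusted p of 0.0144 and of 0.0531 without control 3.

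Of 14 inhibitors of the pathway 6 were lower and 1 was higher, beside 15.2% lower and 14.7% higher among all tested genes. Irak3, a kinase-like brake on Myd88 signaling, fell from 18.8 ± 0.526 to 13.8 ± 1.13 CPM (log2 fold change -0.44, SE 0.10, adjusted p = 0.00989). Sarm1, a TIR domain protein that cleaves NAD and can inhibit Ticam1, was the 1 called higher, from 11.01 ± 0.494 to 43.7 ± 3.18 CPM (1.99, SE 0.10, adjusted p = 5.55e-07). Il1rl1 and Trafd1 fell by 1.33 (SE 0.21) and 1.14 (SE 0.08) on the log2 scale.

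Of 18 tested target genes of the receptors, 14 were lower and 1 was higher, and the median log2 fold change was -1.84. Over all tested genes 15.2% were lower and 14.7% higher, with a median of 0.01. The list was chosen with earlier results of these data known. Icam1, an adhesion molecule, fell by 0.98 (SE 0.08) and Cxcl2, a neutrophil chemokine, by 3.22 (SE 0.20) on the log2 scale. Il6 was the 1 called higher, at a low level of 0.292 ± 0.0341 and 1.40 ± 0.158 CPM. The number called higher was 2 without optimized 2, and 0 with at least 10 counts in each library or in limma on genes of mean FPKM at least 1. Among 11 sensors outside the family, 8 were lower and 1 higher, beside the same 15.2% and 14.7% of all tested genes. Nod2, a cytosolic receptor of bacterial peptidoglycan, and Rigi, a cytosolic RNA sensor, fell by 1.63 (SE 0.16) and 1.35 (SE 0.14), and Aim2, a DNA sensor, rose by 0.60 (SE 0.12). In the 3 limma fits Aim2 was not called (adjusted p = 0.0533 to 0.0607), and no sensor was called higher.

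**Figure D5:**
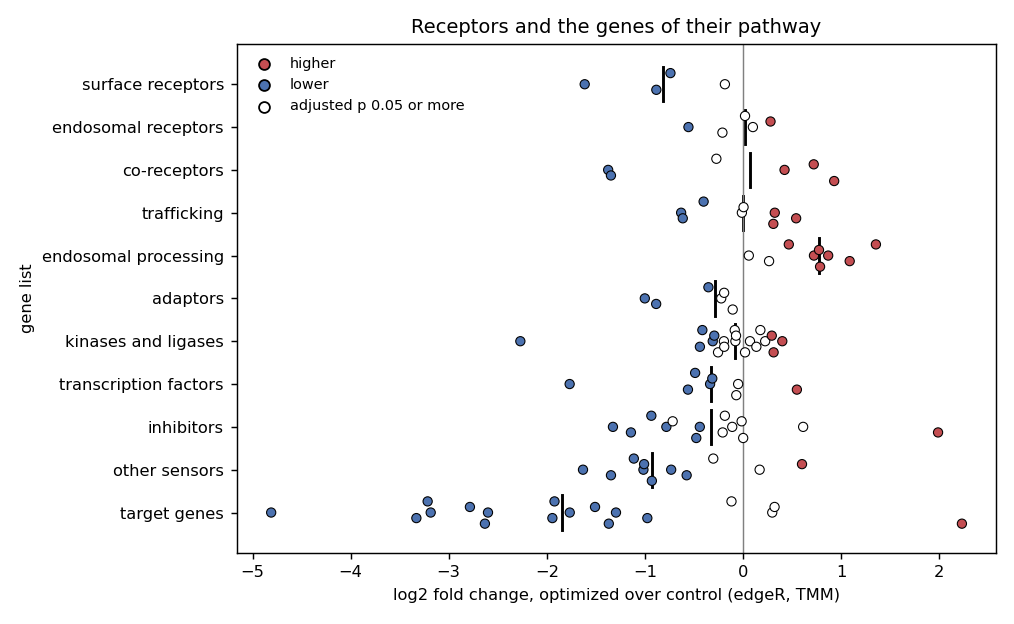
log2 fold change (edgeR, TMM) of every tested gene in the receptor groups and 9 pathway lists, with red for higher, blue for lower, white for an adjusted p of 0.05 or more and a bar at each median. The medians are -0.81 for surface receptors, 0.02 for endosomal receptors, 0.77 for endosomal processing and -1.84 for target genes.

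The genes whose levels followed each extreme receptor most closely over the 6 libraries are a description only, since the shared difference between groups and the small number of libraries push such correlations up. For Tlr13 these included Plcb4 and Tnik (Pearson r = 0.999 for each), with log2 fold changes of 0.99 and 0.66. For Tlr1 they were Birc3, Pi4k2a and the predicted gene Gm53766, with r = 0.9996, 0.999 and 0.999 and log2 fold changes of -1.40, -0.53 and -1.87.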

How the data were processed

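RNA of 3 control and 3 optimized cultures was sequenced as paired ends. The authors used HISAT2 to map reads to mm39 (the GRCm39 build), featureCounts in Galaxy to count them, and deposited raw counts per gene and FPKM values, which are counts per gene length and library, for 41079 symbols. Versions, annotation, strand setting and the handling of ambiguous reads are not given in the sources used here. Totals of 20628148 to 27261839 counts leave little counting error for the receptors except for Tlr5, Tlr11 and Tlr12. Counting error is larger for scarce pathway genes and markers, such as Il6, Lbp, S100a8 and Nefl. Groups came from sample titles. The study calls the libraries biological replicates, but whether each came from its own flask or litter is not given, and p-values measure the spread between these libraries.

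Counts were filtered with filterByExpr, scaled with TMM factors and compared in R 4.3.3 with edgeR 4.0.16 (quasi-likelihood test, no covariates, 14618 genes, Benjamini-Hochberg adjustment, threshold 0.05). Standard errors are the log2 fold change over the square root of F. The common dispersion was 0.0164. Deposited FPKM values served for levels between genes and, on log2(FPKM + pseudocount) of 1 or 0.1, which understates changes of low genes, for limma 3.58.1. Other alternatives were DESeq2 1.42.0, relative log expression factors, library size alone, no filter, a minimum of 10 counts per library, a block for the replicate number and leaving out each library. Steps were tested on simulated counts. Named genes are the receptors, Tlr11, Tlr12, 10 set pathway genes and the up to 3 highest and 3 lowest called genes of each list, and for likeness the 3 genes with at least 5 CPM and the highest correlation, 1 of which is not reported here. The receptors and lists were chosen with earlier results of these data known. Coordinates are from GENCODE M39, promoters from RefSeq on GRCm38.p6.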

Additional observations from a re-analysis of the deposited data

How the results depend on the processing

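The lower calls of Tlr1, Tlr4, Tlr6 and Tlr3 held in every alternative fitted to the single genes. Their log2 fold changes there were -1.75 to -1.56, -1.01 to -0.81, -0.87 to -0.71 and -0.69 to -0.44, in this order. The sum of Tlr1 and Tlr6 was at -1.29. Tlr1 gave most of its counts in every library, so the sum cannot bear on Tlr6 alone. Library size alone and limma with a pseudocount of 1, with one of 0.1 and with 1 for genes of mean FPKM at least 1 lower the median of all genes by 0.13 to 0.14 and call 6 receptors lower and 0 higher. They gave Tlr2 -0.31, -0.32, -0.33 and -0.32 and Tlr7 -0.34, -0.34, -0.35 and -0.34 (all called), Tlr8 -0.11, -0.11, -0.12 and -0.11 and Tlr9 -0.0236, -0.0391, -0.0435 and -0.0391 (sign turned, not called), and Tlr13 0.15, 0.14, 0.14 and 0.14 (not called). The percentage of calls that were higher was 49.1% with TMM and 32.3% with library size alone, and 31.1%, 31.3% and 28.4% in the limma fits. DESeq2 called Tlr7 (-0.21). Without a filter Tlr8 was at -0.001 and Tlr13 at 0.26 (adjusted p = 0.0713), so 0 receptors were higher. With 1 library left out, Tlr2 ranged from -0.24 to -0.15, Tlr7 from -0.24 to -0.18, Tlr8 from -0.0099 to 0.0358, Tlr9 from -0.0066 to 0.16 and Tlr13 from 0.23 to 0.31. The number of receptors called higher was then 0 to 1. Tlr8 turned its sign without control 3 or optimized 1 (-0.0099 and -0.0054), and Tlr9 without optimized 1 (-0.0066). Of the 99 pathway genes 20 were called higher in the main fit, and 12, 12 and 11 in the limma fits. The endosomal share differed by 7.12 to 11.03 points. Whether same-numbered libraries form pairs is not given. In their deviations from the group mean, same-numbered libraries correlated at 0.27, -0.01 and 0.19, and differently numbered ones at -0.29 to 0.19. With 3 libraries a group this cannot settle whether they were paired. With the replicate block, 2401 genes were higher and 2523 lower, against 2142 and 2218, and no call of a receptor changed, with Tlr13 at 0.28 (adjusted p = 0.0221). The cause of these changes was not tested. With 3 libraries a group, exact tests of a single value cannot go below 0.1.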
